A study of Mus musculus with 4 samples.

Results

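The CXC chemokines examined here are 8 genes taken by symbol, Cxcl1, Cxcl2, Cxcl9, Cxcl10, Cxcl12, Cxcl13, Cxcl14 and Cxcl16, of 32285 features in each matrix. Single-cell RNA was measured in mouse aorta with droplet 3' libraries, 1 library for each of 4 groups. A normal diet was given to a WT and a LysM-DKO group, called WT normal and LysM-DKO normal below. A western diet was given to groups that also lacked ApoE, with the genotypes WT/ApoE-/- and LysM-DKO/ApoE-/-, called WT western and LysM-DKO western. Series of 4 values follow the order WT normal, LysM-DKO normal, WT western, LysM-DKO western. The labels do not say which genes LysM-DKO removes, so the targeted genes could not be checked. LysM is the lysozyme M gene, whose promoter is commonly used to drive recombination in myeloid cells. Age, sex, and the number of animals behind a library are not given in the sources used here. All 4 suspensions came from perfused aortas digested with collagenases and liberase for 90 min at 37 °C.

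Chemokines are small secreted proteins that attract cells bearing the matching receptor. Cxcl1 and Cxcl2 act on Cxcr2 and draw neutrophils. Cxcl9 and Cxcl10 are induced by interferon and act on Cxcr3 of activated T cells. Cxcl12 holds Cxcr4-bearing cells in place and is scavenged by Ackr3, Cxcl13 guides Cxcr5-bearing B cells, and Cxcl16 is made as a membrane protein that binds Cxcr6 and is shed by Adam10. Cxcl14 is an older family member made by stromal and epithelial cells, whose receptor is less settled. In the artery wall these ligands are best known for the entry of leukocytes into plaque and for lymphoid cell clusters in the adventitia, the outer layer rich in fibroblasts.

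With 1 library in each group there is no replicate spread, no test between groups and no p-value. Molecules were counted by unique molecular identifiers (UMIs). A level is the gene's UMIs in a class of barcodes per 1000000 UMIs of that class (CPM). Their 95% intervals cover counting error only, as do those of all ratios and shares. Kept barcodes numbered 7758, 8230, 13744 and 8133, with medians of 4167, 3404, 2103 and 6761 UMIs. The matrices held totals of 51.3, 50.7, 67.5 and 62.5 (in units of 1000000 UMIs). The diets cannot be told apart from other differences between the library pairs. Xist, the RNA of the inactive X chromosome, was at 950, 950, 0.64 and 0.56 CPM, genes of the Y chromosome were at 0.098, 0.13, 185 and 193 CPM in sum, and Apoe was at 549, 946, 4.47 and 1.92 CPM. By these genes the normal diet libraries read as female and the western diet libraries as male, so that sex goes with diet. Comparisons are therefore made between genotypes within a diet. A log2 ratio is that of LysM-DKO over WT, and a pair of ratios gives normal diet first. Of the 4 libraries, any pair shared 38 to 129 barcode sequences, at most 0.82% of the smaller library.

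Classes were set by marker UMIs in each barcode, first match first. Macrophages (C1qa, C1qb and C1qc) numbered 92, 208, 939 and 135 barcodes, and fibroblasts (Pdgfra and Serpinf1) 628, 751, 634 and 654. Smooth muscle (Myh11 and Cnn1) took 3690, 3487, 8836 and 6636 barcodes. B cells numbered 773, 1121, 503 and 14, and T cells 738, 645, 315 and 33. Markers that the class rule did not use were found where they belong for most classes. All 7 further macrophage markers were detected in the macrophages, at 2603 to 4513 CPM in sum against 55 to 113 CPM in smooth muscle. The 5 further fibroblast markers summed to 21833 to 30966 CPM in fibroblasts and 1458 to 5118 CPM in smooth muscle. The class set by Pecam1 and Cdh5 went against an endothelial name. There 5 further endothelial markers summed to 123 to 579 CPM and 5 smooth muscle markers to 16536 to 23220 CPM, and 71.7% to 87.8% of its barcodes also met the rule of another class. It is called the Pecam1/Cdh5 class. Macrophages met a further class rule in 60.9%, 63.9%, 43.5% and 37.0% of barcodes, and no doublet caller was run.

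Most of the chemokines had a leading cell class. Macrophages had the highest mean CPM of Cxcl1, Cxcl2, Cxcl9, Cxcl10, Cxcl13 and Cxcl16, and fibroblasts that of Cxcl12 and Cxcl14. For Cxcl1, Cxcl2, Cxcl10, Cxcl12 and Cxcl16 the same class ranked first in each of the 4 libraries, with its interval apart from that of the next class. For Cxcl9, Cxcl13 and Cxcl14 the first class was not the same in all libraries. Among the lower classes many neighbours were within counting error, such as B and T cells for Cxcl1 in WT normal and WT western.

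**Figure D1:**
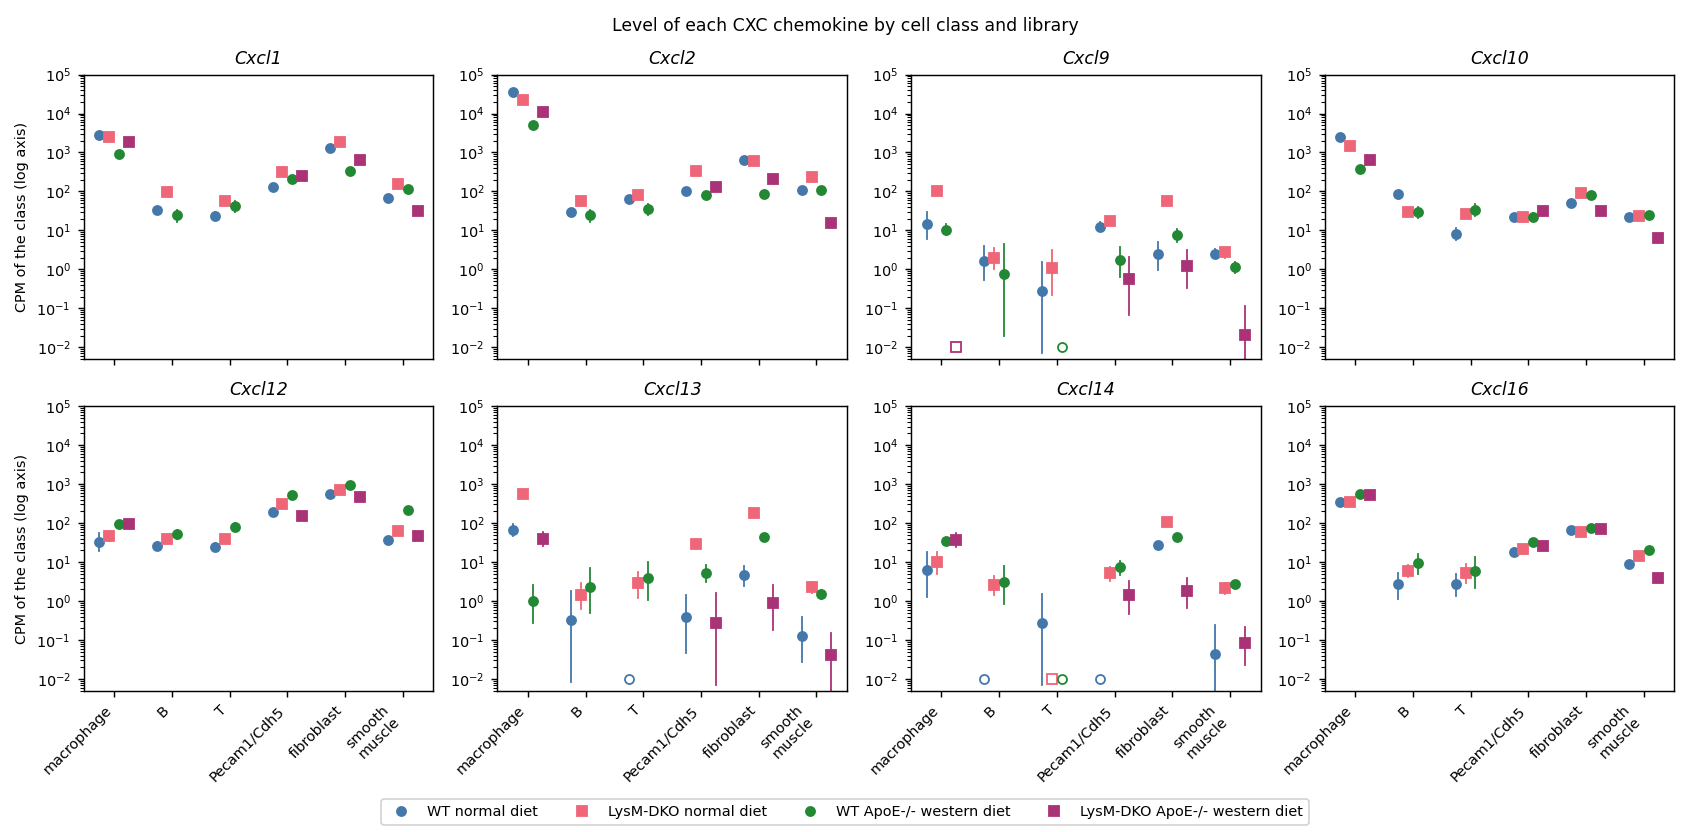
Level of each of the 8 chemokines in CPM of the class (log axis) by cell class, with 1 point for each library and its 95% Poisson interval; open symbols at the bottom mark 0 UMIs, and classes under 50 barcodes are not drawn. Cxcl2 in macrophages lies between 5154 and 34608 CPM, far above every other class, while Cxcl12 is highest in fibroblasts in all 4 libraries.

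Cxcl2, a neutrophil attractant, was a macrophage transcript in these aortas. Macrophages were 1.19%, 2.53%, 6.83% and 1.66% of kept barcodes and held 72.4%, 72.0%, 72.3% and 78.1% of all Cxcl2 UMIs. Their Cxcl2 level was 34608, 22629, 5154 and 10953 CPM. The level was higher in each normal diet library than in either western diet library. On normal diet the level was lower in LysM-DKO than in WT, with a log2 ratio of -0.61 (95% interval -0.64 to -0.58). The western diet pair went the other way, and LysM-DKO was higher by 1.09 (1.05 to 1.13), or 2.13 fold. Single barcodes reached 1061, 637, 350 and 337 Cxcl2 UMIs. After each barcode was thinned to 1000 UMIs, 75.0%, 74.5%, 55.0% and 77.8% of macrophages still had a Cxcl2 UMI, beside 78.3%, 79.3%, 67.7% and 85.2% without thinning. B and T cells together, which are not known to make Cxcl2, had a thinned share of 2.45%, 4.47% and 1.47% in the first 3 libraries, and 8.54%, 16.7% and 4.89% without thinning. Of these barcodes 62.9%, 70.1% and 22.0% also met another class rule, so that free RNA and RNA of other cells cannot be told apart in them. Their median depth was 3576, 3596 and 2057 UMIs, against 4708, 4715 and 2796 in the macrophages. In LysM-DKO western only 47 B and T barcodes were kept and none had a Cxcl2 UMI, which allows a share with a UMI of up to 6.38% (3 of 47). Neutrophil markers in the macrophage class summed to 157, 134, 23.0 and 51.3 CPM, in the order of Cxcl2 over the libraries. Of the 5 markers, S100a9 and Retnlg had no UMI there in any library, and Mmp9, which macrophages also make, gave 134, 109, 3.07 and 27.1 CPM of the sums. Smooth muscle markers in the same class summed to 3985, 4196, 7954 and 4675 CPM. The part of either in the Cxcl2 levels was not tested.

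Cxcl1, the partner of Cxcl2 on the same receptor, had a second source. In macrophages its level was 2831, 2455, 902 and 1824 CPM. The fibroblast level was 1321, 1906, 326 and 652 CPM. Macrophages were thus above fibroblasts in every library, by 2.14, 1.29, 2.77 and 2.80 fold. Fibroblasts were the larger class on normal diet and held 44.2% and 44.6% of all Cxcl1 UMIs there, and macrophages 15.9% and 17.2%. In WT western the order of these shares was the reverse, 31.4% in macrophages and 11.3% in fibroblasts, and smooth muscle barcodes held 34.6%. LysM-DKO western had the normal diet order, with 34.7% in fibroblasts and 20.5% in macrophages. The genotype ratio in macrophages was small on normal diet, -0.21 (-0.30 to -0.11) on the log2 scale, and 1.02 (0.92 to 1.11) on western diet. The normal diet value rested on few barcodes, since 5 of the 92 WT macrophages held 50.5% of their Cxcl1 UMIs. With equal weight for each barcode it became 0.32. In fibroblasts Cxcl1 was higher in LysM-DKO on both diets, by 0.53 (0.47 to 0.59) on the log2 scale on normal diet, and with an interval of 0.90 to 1.10 on western diet.

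The macrophages with Cxcl1 were nearly all macrophages with Cxcl2. Of those with a Cxcl1 UMI, 97.4%, 94.3%, 90.1% and 96.7% also had a Cxcl2 UMI. Most macrophages had one in any case, 72 of 92, 165 of 208, 636 of 939 and 115 of 135. In fibroblasts Cxcl1 was the more widely detected of the pair, in 348, 451, 259 and 291 barcodes against 130, 198, 96 and 60 with Cxcl2. There 30.5%, 33.5%, 26.6% and 18.2% of the barcodes with Cxcl1 had Cxcl2, while 81.5%, 76.3%, 71.9% and 88.3% of those with Cxcl2 had Cxcl1. These shares are not thinned and rise with depth.

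Cxcl10, a T cell attractant induced by interferon and by NF-kB, was like Cxcl2 highest in macrophages. Its macrophage level was 2563, 1467, 375 and 634 CPM, and macrophages held 51.8%, 56.5%, 44.3% and 43.8% of its UMIs. WT was above LysM-DKO on normal diet and below it on western diet. The log2 ratios were -0.81 (-0.91 to -0.70) and 0.76 (0.60 to 0.91). The thinned share of macrophages with a UMI was 50%, 43.3%, 14.6% and 27.4%, and in B and T cells 1.32%, 2.38% and 1.71% in the first 3 libraries. Of the macrophages with Cxcl10, 100%, 97.5%, 93.6% and 98.3% had a Cxcl2 UMI. Of all macrophages 72 of 92, 165 of 208, 636 of 939 and 115 of 135 had one.

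Cxcl1 and Cxcl2 lie side by side, at chr5:90891241-90893115 and chr5:90903871-90905938 on the plus strand of GRCm38 in the GENCODE M21 annotation, 10755 bases apart. Cxcl9 (chr5:92321347-92328079) and Cxcl10 (chr5:92346638-92348889) are a second pair on the same chromosome, both on the minus strand and 18558 bases apart. Cxcl10 overlaps Art3 on the other strand, and Cxcl16 (chr11:70453983-70459984, minus strand) overlaps Zmynd15 on the other strand. No other member overlaps an annotated gene. The rest are Cxcl13 at chr5:95956951-95961068 (plus strand), Cxcl12 at chr6:117168535-117181367 (plus strand) and Cxcl14 at chr13:56288643-56296551 (minus strand). Upstream sequence from RefSeq (build GRCm38.p6) was matched for 7 of the 8 members, and not for Cxcl16. In the 250 bases before the RefSeq start, the longest run of bases common to any pair of members was that of Cxcl1 and Cxcl2, and their stretches are shown for that reason. Each is read 5′ to 3′ on the strand of the gene, and capitals mark the shared run.
Cxcl1 (chr5:90891129-90891232, plus strand, bases 116 to 13 upstream): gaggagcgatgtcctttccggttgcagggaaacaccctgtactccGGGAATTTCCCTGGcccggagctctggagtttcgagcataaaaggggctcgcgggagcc
Cxcl2 (chr5:90903757-90903860, plus strand, bases 142 to 39 upstream): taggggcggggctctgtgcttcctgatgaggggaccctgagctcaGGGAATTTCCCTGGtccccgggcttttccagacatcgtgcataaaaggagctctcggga

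The run has 14 bases, GGGAATTTCCCTGG, and lies 71 to 58 bases upstream of Cxcl1 and 97 to 84 bases upstream of Cxcl2. On either strand it is in 2 of 32851 promoters of the table (0.00609%), which are these 2 genes. The other 20 pairs of members shared runs of 7 to 12 bases. Upstream of Cxcl10, 11 bases of the run, GGAATTTCCCT, are present on the other strand, as in 10 of the 32851 promoters (0.0304%). Upstream of Cxcl9, 9 bases of it, GGGAATTTC, are present on the other strand, as in 77 promoters (0.234%). These letters resemble the binding motif of NF-kB, a transcription factor of inflammation. A match describes the window and is not a measured binding site.

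Genes known as targets of NF-kB mostly had ratios of the same sign as Cxcl1, Cxcl2 and Cxcl10 in macrophages. For Cxcl1 the normal diet sign reversed with equal weight for each barcode. Of 10 listed genes, 1 had a log2 ratio above 0 on normal diet, with a median of -0.68, and 9 on western diet, with a median of 0.58. The medians over all macrophage genes tested were 0.055 and -0.054, and the share of all these genes above 0 was not counted. Nfkbia, the inhibitor that NF-kB induces, was at 2434, 1491, 1526 and 2102 CPM. Zfp36, which destabilises inflammatory transcripts, was at 743, 587, 405 and 503 CPM. The chemokine gene Ccl4 was at 21376, 13657, 2432 and 4564 CPM, and Nfkbiz at 528, 348, 414 and 594 CPM. WT was the higher of the normal diet pair and the lower of the western diet pair for each of these 4 genes. Past 2 fold on normal diet were 2 of the 10, Tnf (-1.09) and Ccl3 (-1.13), against 8.94% of all macrophage genes. On western diet 2 were, against 13.2% of genes, Ccl3 higher (1.11) and Il6 lower, with 20 UMIs in WT and 0 in LysM-DKO. These 3 genes are named here for their values. The Il6 call rests on the 0.5 UMIs added to each side. Against the floor of 3 UMIs, which is 4.27 CPM in LysM-DKO western macrophages, Il6 was not past 2 fold. Genes known to respond to tissue dissociation had the same signs. Of 11, none had a ratio above 0 on normal diet (median -0.49), and 9 did on western diet (median 0.61). The part of NF-kB or of dissociation in the chemokine ratios was not tested. Of 8 interferon genes 7 could be compared in macrophages, with a ratio above 0 in 3 on normal diet (median -0.04) and in 6 on western diet (median 0.27). Irf1, a regulator that interferon induces, was at 147, 114, 91.0 and 117 CPM.

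Cxcl16 differed little between genotypes in its leading class. This transmembrane ligand, also known as a scavenger receptor for oxidised lipoprotein, was at 350, 355, 561 and 529 CPM in macrophages. The log2 ratios were 0.02 (-0.24 to 0.29) and -0.08 (-0.25 to 0.07). Fibroblasts had 66.1, 59.8, 76.0 and 71.6 CPM, the second level in each library, with ratios of -0.15 (-0.43 to 0.14) and -0.08 (-0.34 to 0.17). The thinned share of macrophages with a UMI was 18.5%, 19.7%, 33.2% and 27.4%, against 0.265%, 0.453% and 0.733% of B and T cells in the first 3 libraries. Without barcodes that met more than one class rule, the macrophage ratios were -0.52 and -0.49. Adam10, the sheddase of Cxcl16, was at 56.5, 56.3, 83.1 and 88.3 CPM in macrophages, and Adam17 at 115, 165, 185 and 181 CPM.

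In macrophages as a whole, 2 of 7 comparable members were past 2 fold between genotypes on normal diet, Cxcl9 and Cxcl13, both higher in LysM-DKO. Of all macrophage genes 8.94% were past 2 fold there. On western diet Cxcl1, Cxcl2 and Cxcl13 were past 2 fold higher and Cxcl9 lower, 4 of 8 members against 13.2% of genes. Cxcl1 stood at 2.02 fold, close to the threshold, and 2 members were past it with at least 2000 UMIs in a barcode, without barcodes of more than one class, or with doubled marker thresholds. Without the richest barcode of each library 2 members were past it, Cxcl2 (1.06) and Cxcl12 (-2.03). Cxcl1 was then at 0.93, and Cxcl9 and Cxcl13 had too few UMIs to compare.

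Cxcl12, the stromal ligand of Cxcr4, had its highest level in fibroblasts. The fibroblast level was 560, 690, 973 and 480 CPM, and 62.4%, 69.6%, 71.8% and 60.4% of fibroblasts had a UMI. Thinned, the shares were 37.1%, 38.7%, 44.0% and 30.9%. The UMIs were spread widely, and the 5 richest fibroblasts held between 7.28% and 12.3% of them. The highest library was WT western and the lowest LysM-DKO western. LysM-DKO was slightly above WT on normal diet, with a log2 ratio of 0.30 (0.21 to 0.39), and below it on western diet, at -1.02 (-1.10 to -0.93). The Pecam1/Cdh5 class came second in each library, at 189, 311, 521 and 155 CPM, with ratios of 0.72 (0.60 to 0.84) and -1.75 (-1.89 to -1.61). In smooth muscle Cxcl12 was at 37.6, 63.7, 216 and 47.6 CPM, and that class held 49.3% of all Cxcl12 UMIs in both western diet libraries. Its western diet UMIs were 7423 and 2297, beside 3806 and 1596 in fibroblasts. On normal diet fibroblasts held more, 1594 and 2527 UMIs beside 871 and 1094 in smooth muscle. Without thinning, macrophages had 11.96%, 12.98%, 19.4% and 7.41% of barcodes with Cxcl12, against 6.22%, 12.2%, 9.54% and 8.51% of B and T cells.

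Cxcl14 had its highest mean level in fibroblasts, from a small number of barcodes. There were 9, 45, 33 and 4 fibroblasts with a UMI, and the level was 26.7, 104.2, 44.8 and 1.81 CPM. LysM-DKO normal had the highest level and LysM-DKO western the lowest. The log2 ratios were 1.96 (1.61 to 2.34) and -4.52 (-6.10 to -3.48), the latter from 6 UMIs in LysM-DKO western. A single WT normal barcode held 45 of the 76 UMIs in that library's fibroblasts, and without the richest barcode of each library the normal diet ratio was 3.07. Barcodes with 5 or more Cxcl14 UMIs numbered 3, 30 and 12 in the first 3 libraries. Of these 3, 22 and 7 were classed as fibroblasts, and 2, 15 and 2 met more than one class rule. All of them had a fibroblast marker, while smooth muscle markers were present in 3, 30 and 11 and macrophage markers in 2, 21 and 5. Fibroblast markers summed to 57830, 32664 and 26942 CPM in these barcodes. Smooth muscle markers summed to 2293, 2486 and 620 CPM, and macrophage markers to 224, 335 and 216 CPM. In WT western Cxcl14 was also seen in 75 macrophages, with 132 UMIs, and in 75 smooth muscle barcodes, with 93, beside 175 UMIs in the fibroblasts. The fibroblast and macrophage levels of that library had overlapping intervals. In LysM-DKO western macrophages had the higher level, 37.0 CPM from 26 UMIs in 16 barcodes, beside 33.7 CPM in the macrophages of WT western (log2 ratio 0.16, -0.53 to 0.75).

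Cxcl13, the B cell attractant, came from very few barcodes. It was seen in 10, 15, 2 and 1 macrophages, with 32, 630, 4 and 28 UMIs. In fibroblasts it was seen in 7, 23, 20 and 2 barcodes, with 13, 685, 170 and 3 UMIs. One macrophage of LysM-DKO normal held 391 UMIs and one fibroblast of the same library 566. Over all kept barcodes LysM-DKO normal had 1545 Cxcl13 UMIs against 53 in WT normal. Of these, 1412 were in 15 barcodes with 5 or more, which fell into 5 macrophages, 7 fibroblasts, 2 Pecam1/Cdh5 barcodes and 1 smooth muscle barcode. Of the 15 barcodes, 10 met more than one class rule. Fibroblast markers were present in 13 of them and summed to 13319 CPM. Macrophage markers were in 10 of them (885 CPM), and smooth muscle markers in 15 (1905 CPM). The class names of these barcodes are thus uncertain. The macrophage log2 ratio on normal diet was 3.07 (2.58 to 3.65), and 2.23 (1.63 to 2.96) without the richest barcode of each library. In fibroblasts the normal diet ratio was 5.30 (4.57 to 6.27), and 3.29 (2.39 to 4.53) without the richest barcodes. The western diet ratio in macrophages, 5.14 (3.77 to 7.26), rested on 1 LysM-DKO barcode with all 28 UMIs. Without the richest barcode of each library 1 UMI was left in WT and 0 in LysM-DKO, too few for a ratio.

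Cxcl9, the other interferon-induced ligand, was rare. Macrophages with a UMI numbered 6, 19, 7 and 0, with 7, 111, 41 and 0 UMIs, or 14.7, 100.8, 10.5 and 0 CPM. None of 135 LysM-DKO western macrophages had a UMI, which allows a share with a UMI of up to 2.22% (3 of 135). On normal diet the log2 ratio was 2.69 (1.69 to 4.13). On western diet the level was at least 2.45 fold lower in LysM-DKO, against a floor of 3 UMIs, but 34 of the 41 WT western UMIs were in 1 barcode. In fibroblasts the level was 2.46, 58.1, 7.42 and 1.204 CPM, and 182 of the 213 LysM-DKO normal UMIs were in 1 barcode. In the Pecam1/Cdh5 class the UMIs were spread more evenly. There Cxcl9 was seen in 36, 51, 3 and 2 barcodes with at most 4 UMIs in any, and its level was 12.6, 17.5, 1.77 and 0.56 CPM, higher in both normal diet libraries than in both western diet libraries. Barcodes with 5 or more Cxcl9 UMIs numbered 2, 9 and 7 in the first 3 libraries. Markers of dendritic cells, another known source of Cxcl9, were present in 2, 2 and 5 of them, macrophage markers in 2, 6 and 6, fibroblast markers in 1, 7 and 7, and smooth muscle markers in 2, 9 and 7. The levels in these barcodes differed more. Dendritic markers summed to 2262, 119 and 620 CPM and macrophage markers to 123, 593 and 686 CPM. Fibroblast markers summed to 288, 3361 and 11484 CPM and smooth muscle markers to 1480, 1735 and 531 CPM.

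**Figure D2:**
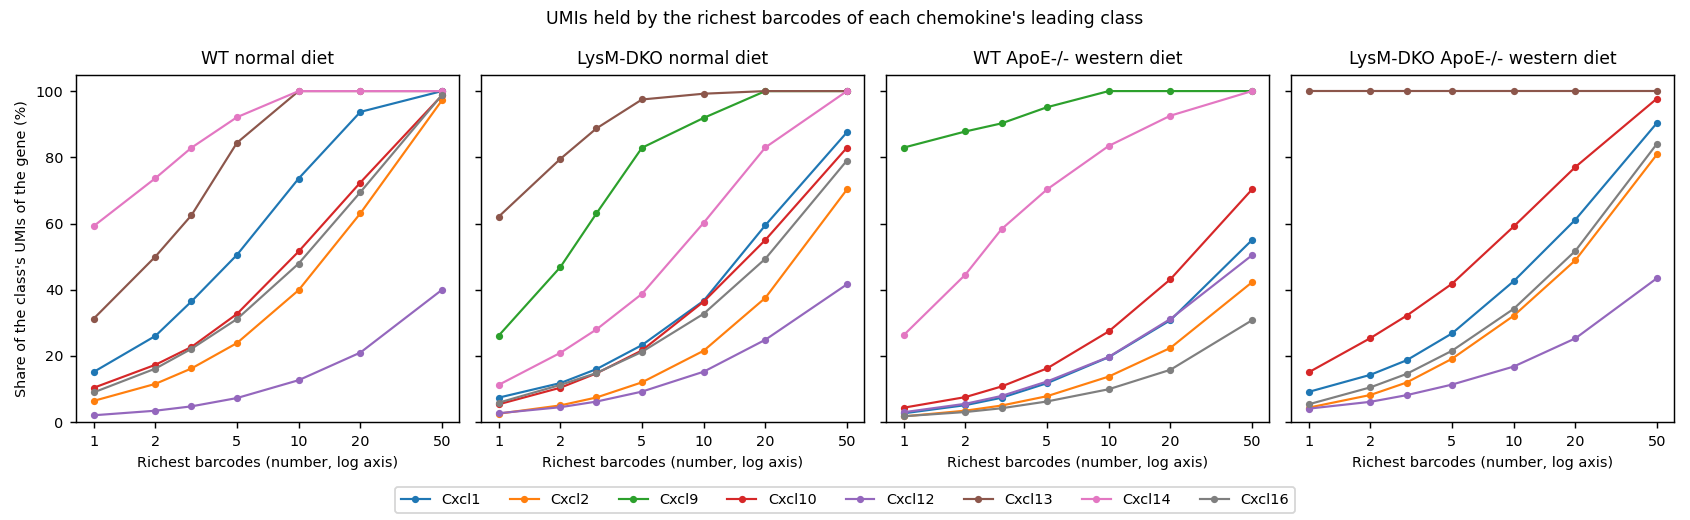
Share of a chemokine's UMIs (percent) held by its richest barcodes, from 1 to 50 (log axis), in its leading class (fibroblasts for Cxcl12 and Cxcl14, macrophages for the rest), with 1 panel for each library and members under 20 UMIs left out. Cxcl9, Cxcl13 and Cxcl14 rest on few barcodes, as with Cxcl13 in LysM-DKO western, where 1 barcode holds all 28 UMIs. The 50 richest barcodes hold the smallest share for Cxcl12 in 3 of the 4 libraries, those with more fibroblasts than macrophages. In WT western, with 939 macrophages and 634 fibroblasts, they hold 50.4% for Cxcl12, 42.2% for Cxcl2 and 30.8% for Cxcl16. The shares do not account for class size.

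Over all kept barcodes the ratios of Cxcl1, Cxcl2 and Cxcl10 had the opposite sign to those in macrophages. With equal weight for each barcode this did not hold for Cxcl1 on normal diet, whose macrophage ratio was then positive. Cxcl2 was at 560, 916, 522 and 173 CPM, Cxcl1 at 209, 415, 210 and 110 CPM, and Cxcl10 at 58.0, 75.6, 62.1 and 17.9 CPM. For Cxcl2 the log2 ratios were thus 0.71 (0.68 to 0.73) and -1.59 (-1.63 to -1.56). For Cxcl1 it was 0.99 (0.95 to 1.03) and -0.94 (-0.98 to -0.90), and for Cxcl10 0.38 (0.30 to 0.46) and -1.79 (-1.90 to -1.69). All 8 members were higher in LysM-DKO on normal diet, where 54.9% of genes were, and all 8 were lower on western diet, where 52.6% of genes were. Past 2 fold were 3 of 8 members on normal diet against 7.2% of genes, and 7 of 8 on western diet against 14% of genes. The makeup of the libraries moved in the same direction. Macrophages held 1.17% and 2.91% of the UMIs of WT normal and LysM-DKO normal, and 7.32% and 1.23% of those of WT western and LysM-DKO western. Each of these shares comes from 1 library, and its part in the ratios was not tested.

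**Figure D3:**
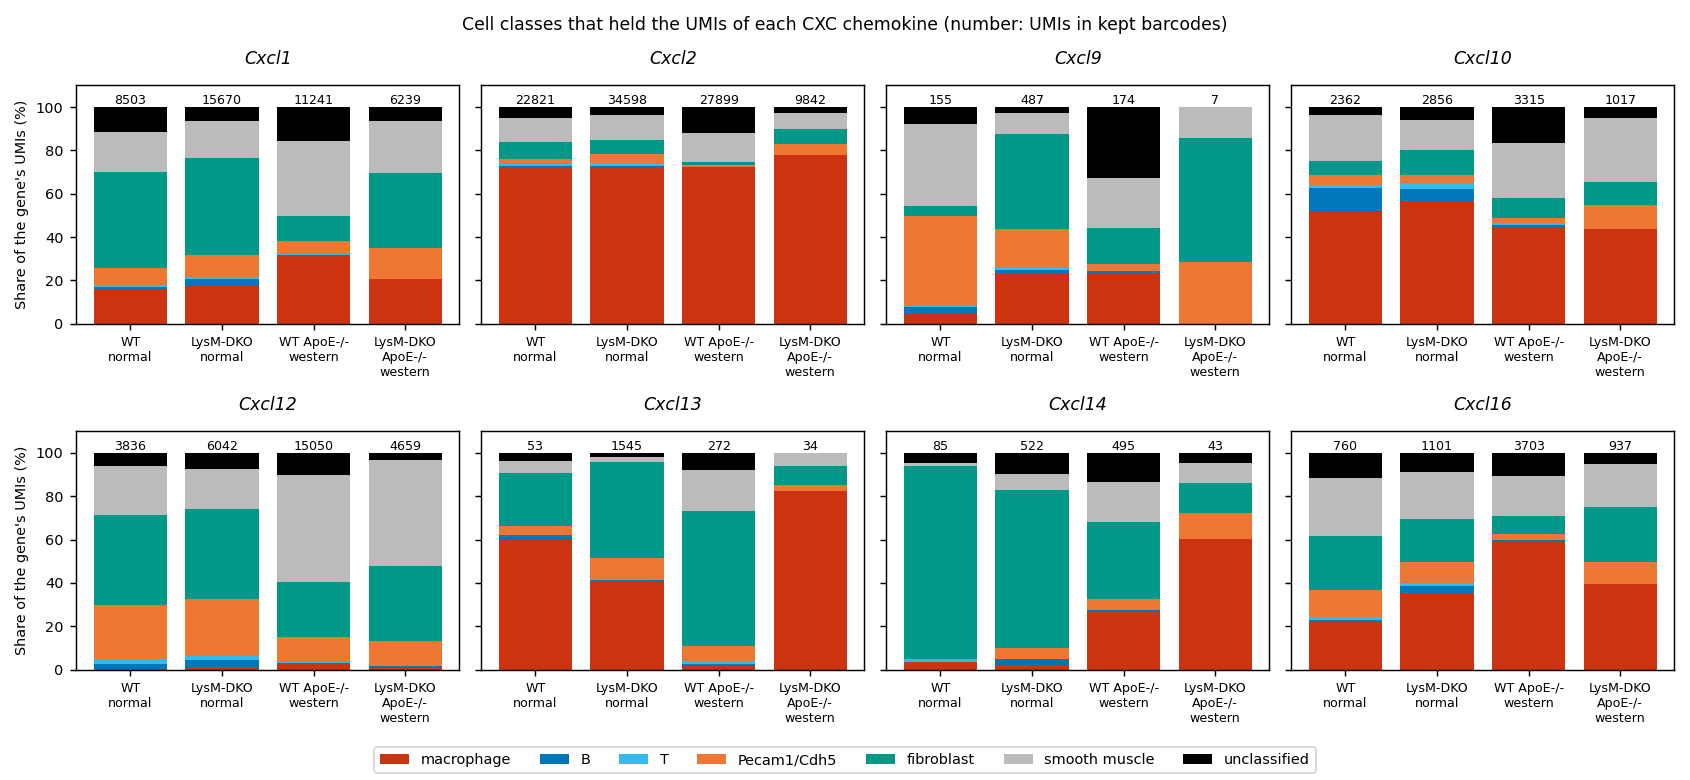
Share of each chemokine's UMIs (percent, bars stacked by cell class) in each of the 4 libraries, with the number of UMIs in kept barcodes above each bar. Macrophages hold 72.0% to 78.1% of Cxcl2 in every library, whereas Cxcl1 and Cxcl12 are divided among fibroblasts, smooth muscle and other classes.

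**Figure D4:**
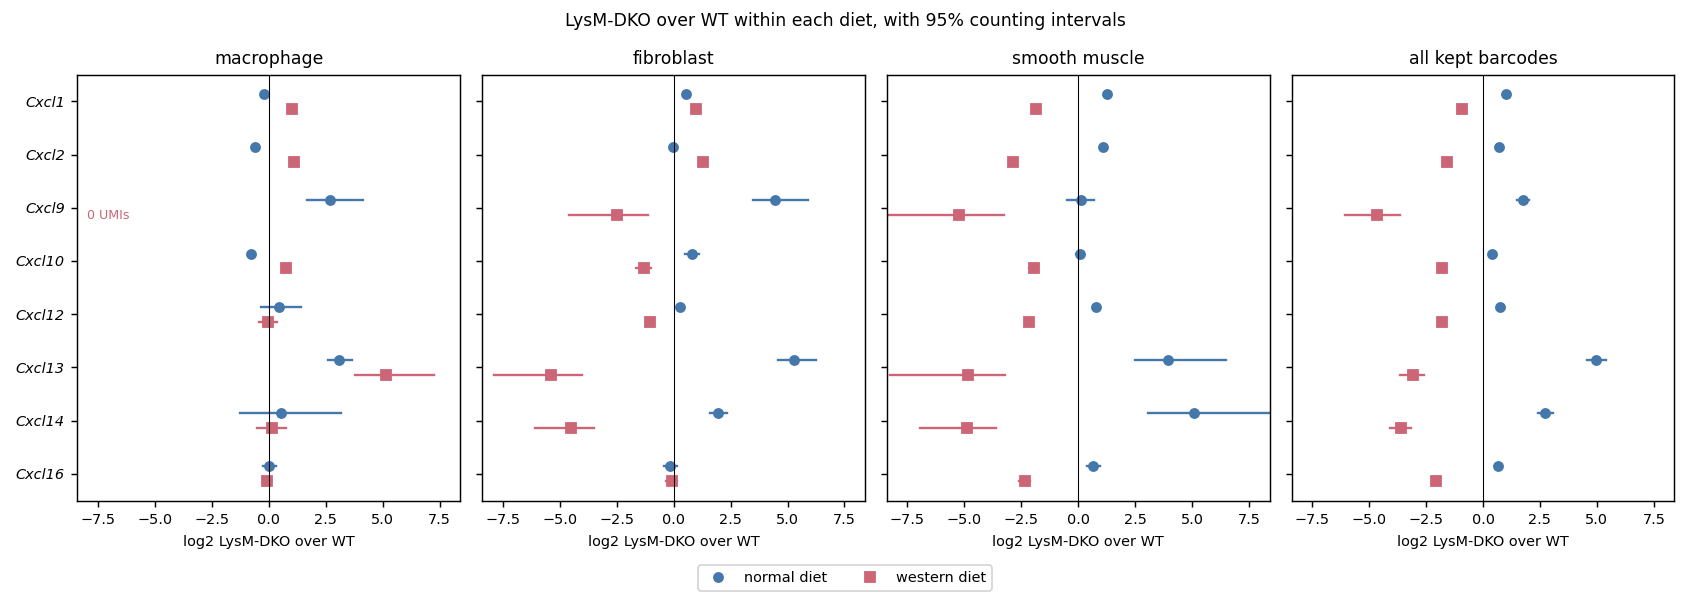
LysM-DKO over WT as a log2 ratio of each chemokine within normal diet (circles) and western diet (squares) in macrophages, fibroblasts, smooth muscle and all kept barcodes, with 95% counting intervals clipped at the panel edge; "0 UMIs" marks the Cxcl9 pair with no UMI in LysM-DKO. In macrophages Cxcl1, Cxcl2 and Cxcl10 lie on the opposite side of 0 from the panel of all kept barcodes, on both diets. The normal diet side of Cxcl1 in macrophages reversed with equal weight for each barcode.

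Outside macrophages the direction of change differed by class. In fibroblasts 3 of 8 members were past 2 fold on normal diet, Cxcl9, Cxcl13 and Cxcl14, all higher in LysM-DKO, against 4.28% of genes. On western diet 6 of 8 were, against 6.81% of genes, with Cxcl2 higher and Cxcl9, Cxcl10, Cxcl12, Cxcl13 and Cxcl14 lower. Cxcl1 lay at the threshold there and was not counted. Fibroblast Cxcl2 was at 632, 613, 83.6 and 205 CPM, and Cxcl10 at 51.3, 89.8, 79.5 and 32.2 CPM. Cxcl10 in fibroblasts was thus the reverse of Cxcl10 in macrophages, with log2 ratios of 0.80 (0.52 to 1.10) and -1.30 (-1.64 to -0.98). In the Pecam1/Cdh5 class 4 of 8 members were past 2 fold higher on normal diet (Cxcl1, Cxcl2, Cxcl13 and Cxcl14), against 4.57% of genes. On western diet Cxcl12 and Cxcl14 were past 2 fold lower there, 2 of 6 comparable members against 6.72% of genes. Without barcodes of more than one class the counts in the Pecam1/Cdh5 class were 2 on normal and 1 on western diet, and without the richest barcode of each library 3 and 1. Cxcl14 had no UMI in that class of WT normal and 26 in LysM-DKO normal, at least 8.64 fold higher against a floor of 3 UMIs.

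No chemokine was above 232 CPM in smooth muscle barcodes, and Cxcl12 reached 216 CPM there in WT western. Of 8 members 4 were past 2 fold higher in LysM-DKO on normal diet (Cxcl1, Cxcl2, Cxcl13 and Cxcl14), against 7.45% of genes. Cxcl9 and Cxcl10 had normal diet log2 ratios of 0.10 (-0.48 to 0.68) and 0.08 (-0.12 to 0.27). On western diet all 8 were past 2 fold lower, against 11.4% of genes. Cxcl2 was at 107.7, 232, 110 and 15.1 CPM, with a western diet log2 ratio of -2.86 (-2.98 to -2.74). Cxcl16 was at 8.81, 13.9, 20.1 and 3.92 CPM, with -2.35 (-2.60 to -2.12). Smooth muscle is less known for Cxcl2 than macrophages are. Its thinned share with a Cxcl2 UMI, 2.52%, 7.92%, 9.31% and 0.738%, was near or above that of B and T cells in the first 3 libraries. The same barcodes differed in markers of other cells. The 7 macrophage markers, all detected, summed to 85.3, 113, 87.6 and 54.9 CPM in smooth muscle, and the 5 fibroblast markers to 1626, 2038, 5118 and 1458 CPM. The 5 neutrophil markers, all detected, summed to 7.69, 194, 14.5 and 2.65 CPM, highest where Cxcl2 was highest. Median depth there was 6228, 3667, 2220 and 6975 UMIs. In smooth muscle barcodes with no C1q UMI, Cxcl2 was at 52.2, 209, 69.2 and 15.2 CPM and Cxcl12 at 37.5, 62.9, 213 and 47.9 CPM. For Cxcl2 the normal diet pair thus lay further apart than in all smooth muscle barcodes, and the western diet pair closer together. The part of free RNA and of other cells in these levels was not tested.

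Among the receptors, Cxcr4, which binds Cxcl12, was at 172, 127 and 216 CPM in the B cells of the first 3 libraries, at 119, 164 and 116 CPM in their T cells, and at 104.7, 98.1, 81.6 and 44.2 CPM in macrophages. Ackr3, the scavenger of Cxcl12, was at 164, 151, 65.7 and 30.4 CPM in fibroblasts, the class with the highest level of the ligand. Its log2 ratios there were -0.11 (-0.29 to 0.07) and -1.11 (-1.46 to -0.78), and on western diet Cxcl12 was also lower in LysM-DKO. Cxcr5, the receptor of Cxcl13, was at 109, 64.8 and 97.1 CPM in B cells. Cxcr6, the receptor of Cxcl16, was at 58.1, 40.6 and 161 CPM in T cells. Cxcr2, the receptor of Cxcl1 and Cxcl2, had 65 UMIs in all kept barcodes of the 4 libraries together, and Cxcr3 had 171, of which 69 were in T cells. These 2 receptors are named for their ligands, outside the rule of most UMIs. Of the 6 other CXC ligands measured, Pf4 was the most abundant and, like Cxcl2, a macrophage transcript at 1479, 895, 133 and 573 CPM. Its log2 ratios, -0.72 (-0.87 to -0.58) and 2.11 (1.92 to 2.30), had the signs of those of Cxcl2. Cxcl3, a close relative of Cxcl2, was at 163, 50.9, 14.3 and 14.2 CPM in macrophages.

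Likeness of level was described over 22 columns, each a class of at least 50 barcodes in 1 library, by Pearson's r of log2(CPM + 1) among 15059 genes. The columns share libraries, depth and free RNA, and the values are descriptions. The genes most like Cxcl1 were the monocyte chemokine genes Ccl7 (r = 0.97) and Ccl2 (0.97) and Ang (0.96), an angiogenin gene. Those most like Cxcl2 were Nfe2l2 (0.97), a regulator of the oxidative stress response, the peroxidase gene Prdx1 (0.97) and the transporter gene Slc7a8 (0.96). Cxcl10 was most like Mapk6 (0.96), Bach1 (0.94) and Tmem251 (0.94). Cxcl12 was most like the fibroblast matrix gene Fbln2 (0.97), Cp (0.95) and the complement gene C1ra (0.94). Cxcl16 was most like the myeloid genes Sirpa (0.98) and Dab2 (0.98) and Rab7b (0.97). For the sparse members the values were lower. Cxcl14 reached 0.87 with Lhfpl2, 0.85 with Tnfsf13b and 0.84 with Mmp19, Cxcl13 reached 0.84 with Ap2a2, 0.83 with Bend6 and 0.82 with Ifi204, and Cxcl9 reached 0.81 with AC142100.1 and 0.79 with Tex14 and Slc35e3. Among the members, Cxcl1 and Cxcl16 were the most alike (0.92) and Cxcl10 and Cxcl12 the least (-0.092), while Cxcl12 and Cxcl2 had an r of 0.0087.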

How the data were processed

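Each of the 4 deposited matrices holds raw counts of UMIs per gene and barcode. They were made with Cell Ranger 6.0.1 for normal diet and 6.1.2 for western diet, per the file headers. The submitters' processing notes name Cell Ranger 6.1.2, Seurat 4.1.0 and build mm10, and the parameters are not given in the sources used here. Gene positions come from GENCODE M21 by gene ID, where all 8 members matched.

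The 8 members and all lists were chosen with earlier results of these data known. A barcode was kept if it had 1000 UMIs or more, of which 10% or less were mitochondrial. A barcode took the first class it met: at least 5 UMIs of C1qa, C1qb and C1qc (macrophage), 2 of Cd79a and Ms4a1 (B), 2 of Cd3d, Cd3e and Trac (T), 2 of Pecam1 and Cdh5, 3 of Pdgfra and Serpinf1 (fibroblast), or 3 of Myh11 and Cnn1 (smooth muscle). No doublet caller was run, and 23.8%, 28.4%, 8.32% and 7.59% of kept barcodes met more than one rule. UMIs were summed per library and class and scaled to CPM. A leading class has the highest mean CPM over libraries with at least 50 barcodes. Intervals of 95% are exact Poisson for levels, exact binomial (Clopper-Pearson) for shares and exact conditional binomial for ratios, and cover counting error only. A log2 ratio sets LysM-DKO over WT, with 0.5 UMIs added to each side, and a count of 0 is given a floor of 3 UMIs. Genes with at least 20 UMIs over both libraries were compared, and called past 2 fold in either direction. Thinning drew 1000 UMIs from each barcode without replacement. The text names all members, at most 4 genes of a list (those of most UMIs), the 3 genes most like each member, and genes marked as named for their values. On simulated counts for macrophages on western diet, 96.1% of 10419 genes had an interval that held the true ratio, as did 96.5% of 200 genes changed 2 fold. These counts were Poisson draws without spread between barcodes or libraries, as the interval assumes. The simulation thus checks only the calculation, and not how the intervals hold for the real counts. Tables were handled with pandas 2.3.3 and numpy 2.4.6, intervals came from scipy 1.17.1 and plots from matplotlib 3.10.9, under Python 3.11.15.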

Additional observations from a re-analysis of the deposited data

Results flagged for a closer look

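The ratio of LysM-DKO over WT had opposite signs on the 2 diets, with both counting intervals apart from 0, for 18 of 32 pairs of a member and a class. The difference between diets was not tested, since each group is 1 library. The same count was not made over all genes, so 18 of 32 has no background share beside it and is a description only. Values are log2 ratios, normal diet first. In macrophages they were -0.21 and 1.02 for Cxcl1, -0.61 and 1.09 for Cxcl2, and -0.81 and 0.76 for Cxcl10. The value of -0.21 reversed with equal weight for each barcode. Cxcl9 was at 2.69 on normal diet and at or below -1.29 on western diet, a bound against a floor of 3 UMIs. That bound rested on 1 barcode. Without the richest barcode of each library, 7 UMIs were left in WT western and 0 in LysM-DKO western, and the interval reached 1.96.

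In the other classes the normal diet ratio was positive and the western diet ratio negative for every such pair. Fibroblast values were 4.47 and -2.48 for Cxcl9, 0.80 and -1.30 for Cxcl10, 0.30 and -1.02 for Cxcl12, 5.30 and -5.37 for Cxcl13, and 1.96 and -4.52 for Cxcl14. In the Pecam1/Cdh5 class they were 0.72 and -1.75 for Cxcl12, 5.89 and -3.69 for Cxcl13, and at least 3.11 and -2.28 for Cxcl14. The western diet value of Cxcl13 there comes from 18 and 1 UMIs, under the 20 set for a comparison, and no UMI was left without the richest barcode of each library. Western Cxcl14 then had 6 and 1 UMIs, and its interval, -8.16 to 0.41, held 0. Normal diet Cxcl13 was then at 4.35 (2.32 to 10.26). Smooth muscle gave 1.24 and -1.87 for Cxcl1, 1.11 and -2.86 for Cxcl2, 0.76 and -2.18 for Cxcl12, 3.93 and -4.85 for Cxcl13, 5.07 and -4.87 for Cxcl14, and 0.66 and -2.35 for Cxcl16.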

How the results depend on the processing

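Values are log2 ratios of LysM-DKO over WT in the leading class. One reversed: Cxcl1 on normal diet, -0.21, was 0.32 with equal weight for each barcode. Over all alternatives, 115 ratios stayed within the counting interval of the reported value and 26 moved past it. Of those 26, Cxcl16 on normal diet, whose interval held 0, also changed sign. Without barcodes of more than one class, normal diet values were -0.43 (Cxcl1), -0.55 (Cxcl2), -0.61 (Cxcl10), 3.89 (Cxcl14) and -0.52 (Cxcl16), and western diet values 0.70 (Cxcl1), 0.95 (Cxcl2), -0.92 (Cxcl12) and -0.49 (Cxcl16). With equal weight, Cxcl2 was -0.40 and Cxcl13 1.70 on normal diet, and Cxcl1 1.22, Cxcl2 1.41 and Cxcl10 1.18 on western diet. With marker thresholds doubled, Cxcl10 was -0.65 on normal diet, and Cxcl1 0.75, Cxcl2 0.78, Cxcl10 0.52, Cxcl12 -1.32 and Cxcl16 -0.37 on western diet. With at least 2000 UMIs western Cxcl2 was 0.98, and with median-ratio scaling normal Cxcl2 was -0.56. Leaving out the richest barcode of each library, chosen after seeing the data, gave -0.11 (Cxcl1), 2.23 (Cxcl13) and 3.07 (Cxcl14) on normal diet, and 0.60 (Cxcl10) on western diet. Western Cxcl13 gave no ratio without the richest barcodes or without barcodes of more than one class, since neither library then had more than 3 UMIs. Members past 2 fold in western macrophages fell from 4 to 2 with at least 2000 UMIs, without barcodes of more than one class, with doubled thresholds and without the richest barcodes. In the Pecam1/Cdh5 class they fell from 4 to 2 on normal diet without barcodes of more than one class, and from 2 to 1 on western diet there, with doubled thresholds and without the richest barcodes. Without barcodes of more than one class, 26 levels in the leading class moved past their interval and 6 did not. Of shares with a UMI, 35 moved and 61 did not, over thinning, at least 2000 UMIs and barcodes of one class. The cause of these moves was not tested. Alternatives with at least 500 UMIs, at most 20% mitochondrial UMIs or 1 added UMI moved none of these values. No paired analysis was possible because each group is 1 library.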

Other observations

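Barcodes left out for low depth or high mitochondrial share held part of each chemokine's UMIs. In WT western, the library with the most barcodes under 1000 UMIs (14176), these held 4699 of 33314 Cxcl2 UMIs and 1910 of 13521 Cxcl1 UMIs, and 83.7% and 83.1% of the UMIs of these genes were kept. In LysM-DKO western 98.2% of Cxcl2 UMIs and 97.5% of Cxcl1 UMIs were kept. Of Cxcl12 UMIs 86.2%, 82.3%, 78.8% and 92.8% were kept.

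Ppbp, a platelet ligand gene, had 50 and 17 UMIs in the Pecam1/Cdh5 class of the normal diet libraries and 38 and 1 in their smooth muscle. On western diet its only UMIs were 3 in the macrophages of LysM-DKO western, while Pf4 was highest in macrophages in each library and had 84 and 43 UMIs in the Pecam1/Cdh5 class on normal diet. Cxcl5 had 53, 14, 33 and 1 UMIs in fibroblasts and 2, 4, 58 and 3 in the Pecam1/Cdh5 class.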
